A study of Aedes aegypti and Anopheles culicifacies with 47 samples.

Results

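The opsin genes of the yellow fever mosquito *Aedes aegypti* described here are op1 (AAEL006498, the long-wavelength opsin), op8 (AAEL009615), op9 (AAEL005625) and op10 (AAEL005373). They were chosen by gene identifier, are 4 of the 19804 genes listed for the species, and had a count in place in each of the 16 libraries. The files do not pair identifiers with names, and the RefSeq gene table used here held none of these identifiers. The names therefore rest on the selection alone, and no position, length or sequence is given.

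Opsins are G protein-coupled receptors that bind a retinal chromophore and start phototransduction when they absorb light. In the compound eye of this mosquito, op1 is known from the outer photoreceptors. There, op8 is an ultraviolet-sensitive opsin of inner photoreceptors that also hold op10, and op9 is known from inner photoreceptors too. In *Drosophila*, some opsins also act outside the eye, among other places in stretch-sensing chordotonal organs.

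RNA was sequenced from brain and from olfactory tissue, which pooled the antennae, the maxillary palps, the proboscis and the labium, of wild-type females aged 5 to 6 days. The light phase and the dark phase of their day each lasted 12 h. The study set out to compare the daily rhythm of transcripts in both tissues of a day-biting and a night-biting mosquito. The labels list 24 *Aedes* samples, and the 16 with count data at hand were used here. Among these, each of the 4 clock times (6am, 12pm, 6pm, 12am) had 2 brain libraries. The olfactory libraries used were 2 from 6am, 2 from 12pm, 3 from 6pm and 1 from 12am. The labels do not say whether the retina was left on the brains or how many animals were pooled per library. Titles of olfactory libraries carry a "Read 1" mark that brain titles lack, so tissue and any difference in sequencing that this mark stands for cannot be told apart.

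Reads assigned to genes numbered 5072614 to 10202123 per brain library and 853349 to 6558092 per olfactory library. A list of 7 chemosensory receptor genes, olfactory coreceptors and carbon dioxide receptors taken by identifier from general knowledge of the species, checked the tissue labels. Its summed level was 14.2 to 29.6 CPM in brain and 555 to 1580 CPM in olfactory tissue. All 7 genes were called lower in brain (edgeR quasi-likelihood test, log2 changes of -1.93 to -11.89). Over all 11442 genes tested, 38.1% were called lower in brain. CPM is the count of a gene per 1000000 reads assigned to genes in that library. The lists of photoreceptor, neuron, muscle, fat body and salivary gland markers that were planned could not be applied, because they needed gene descriptions.

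op8 was the opsin that separated the tissues. In brain it was at 229.9 and 134 CPM at 6am, 459 and 71.8 CPM at 12pm, 279 and 284 CPM at 6pm, and 315 and 161 CPM at 12am. In olfactory tissue it was at 1583 and 1267 CPM at 6am, 1831 and 1956 CPM at 12pm, 1929, 1514 and 1640 CPM at 6pm, and 994 CPM at 12am. Every brain library lay below every olfactory library. These values rested on 678 to 3315 reads per brain library and 1292 to 10757 reads per olfactory library, so counting error was small beside the spread between libraries. The mean was 242 ± 121 CPM in brain and 1589 ± 333 CPM in olfactory tissue (SD, n = 8 each), and the brain mean was 15.2% of the olfactory mean.

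**Figure D1:**
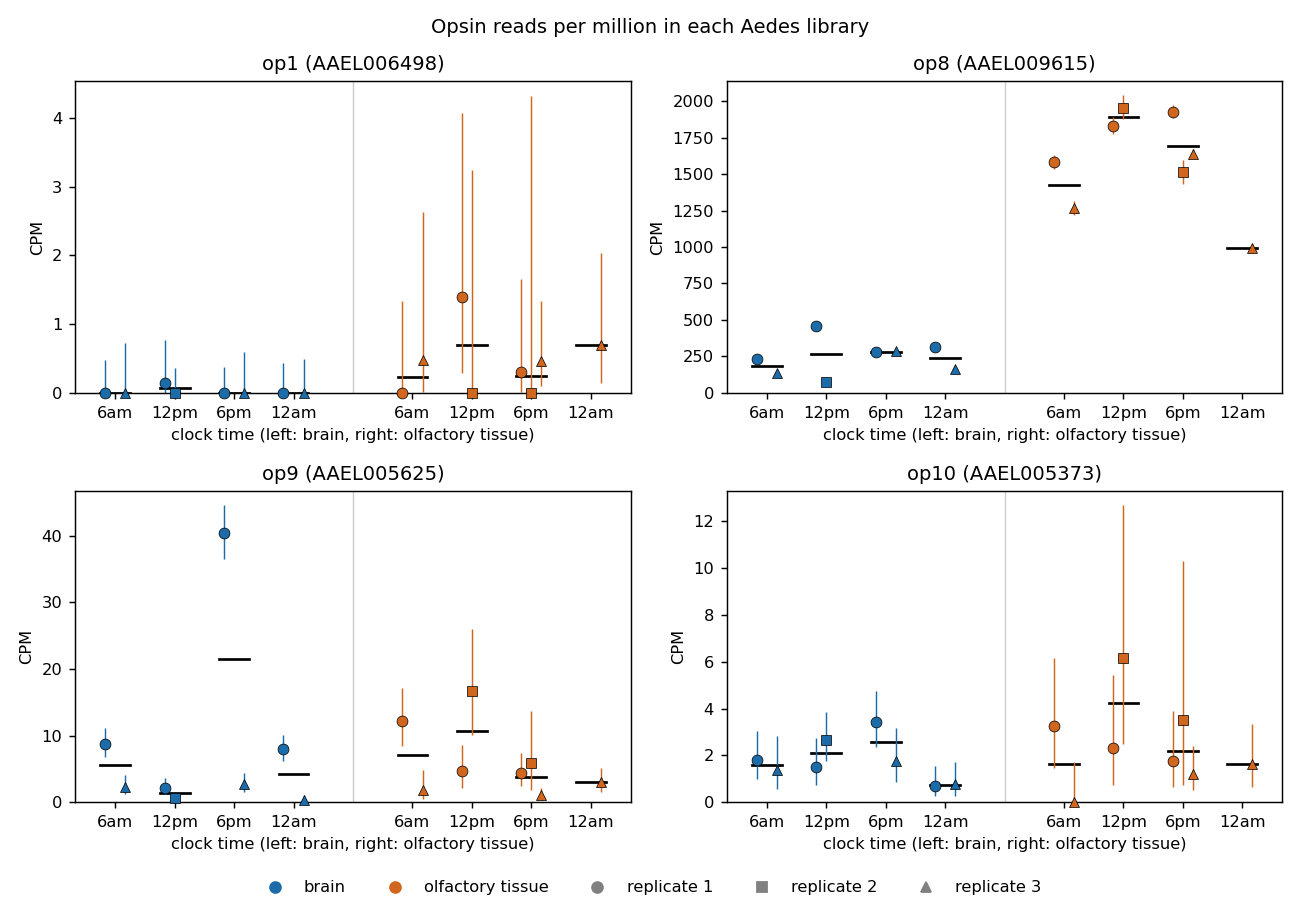
CPM of the 4 opsins in each library, by clock time, with brain in blue on the left of each panel and olfactory tissue in orange on the right. Symbols give the replicate number, vertical lines the exact Poisson 95% interval of the count, and black bars the mean of a clock time. op8 lies at 71.8 to 459 CPM in brain and 994 to 1956 CPM in olfactory tissue, and op9 at 6pm differs 14.7-fold between its 2 brain libraries.

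The tissue difference of op8 passed the test across all genes. The log2 change, brain over olfactory tissue and averaged over the 4 clock times, was -3.15 (SE 0.33, adjusted p = 2.09e-06, edgeR quasi-likelihood test with Benjamini-Hochberg adjustment over 11442 genes). In that test 71.8% of genes were called, 33.6% higher and 38.1% lower in brain, and with a log2 change of at least 1 these were 22.4 and 30.1%. A call of this kind was therefore common. With no scaling factor between libraries, the share of called genes that were higher in brain was 62%, against 46.9%, the median log2 change over all genes moved by 0.54, and op8 was still lower in brain (log2 change of -2.60). In bulk tissue, fewer cells that make a transcript and less of it per cell cannot be told apart. Because the op8 ranges of the tissues did not overlap, op8 had to be lower in brain in all 7 pairs of libraries that shared clock time and replicate number. The pairs therefore add no separate support. In them the brain value was 3.67 to 25.1% of the olfactory one. The summed CPM of the chemosensory receptor list was at 2.04% of its olfactory level in brain, against the 15.2% of op8. Its genes differed, however, with log2 changes of -1.93 to -11.89 that lay on both sides of the -3.15 of op8.

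**Figure D2:**
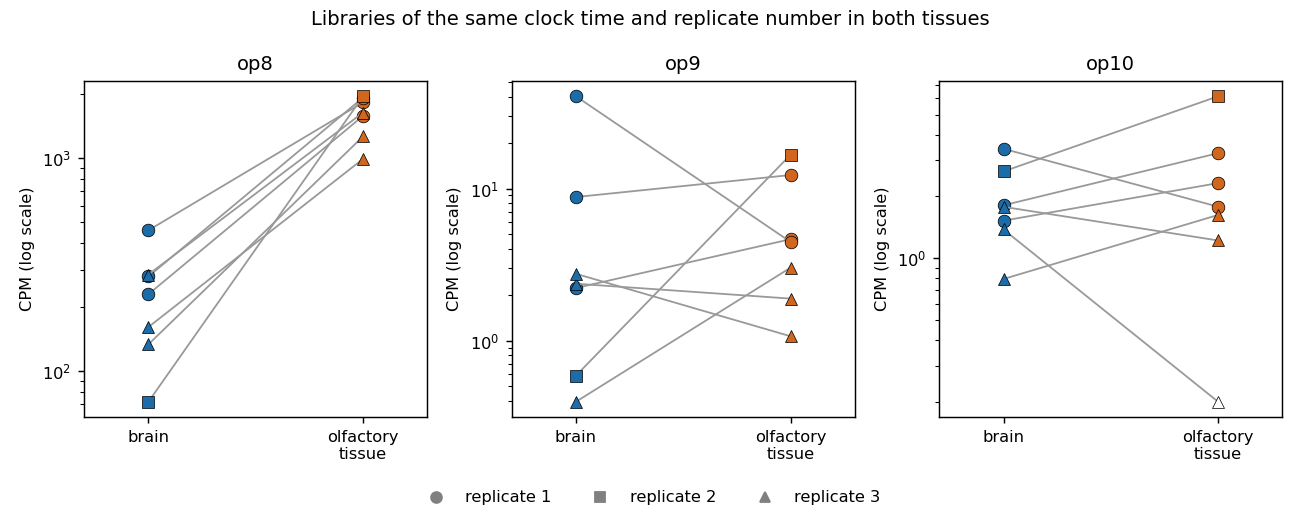
CPM (log scale) of op8, op9 and op10 in the 7 pairs of libraries with the same clock time and replicate number, brain on the left and olfactory tissue on the right, with lines joining each pair. The open symbol is the olfactory library with no op10 read, drawn at 0.2 CPM. op8 is lower in brain in 7 of 7 pairs, which follows from ranges that do not overlap, and op9 and op10 in 4 of 7 each.

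op1, the long-wavelength opsin, was near 0 in both tissues as counted. Brain held 1 op1 read among 62485144 reads in genes, in 12pm replicate 1, and the other 7 brain libraries had 0. Olfactory tissue held 11 reads among 23272702, with 3 each in 12pm replicate 1, 6pm replicate 3 and 12am replicate 3, 1 each in 6am replicate 3 and 6pm replicate 1, and 0 in 6am replicate 1, 12pm replicate 2 and 6pm replicate 2. The highest library was at 0.139 CPM in brain and 1.39 CPM in olfactory tissue. A count of 0 allows up to 0.294 to 0.591 CPM (3 reads) in the 7 brain libraries and up to 1.08 to 3.52 CPM in the 3 olfactory libraries without a read.

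The ratio of summed op1 reads, brain over olfactory tissue and scaled to reads in genes, was 0.0339 with an exact 95% interval of 0.00079 to 0.233 that covers counting error only. The mean was 0.0173 ± 0.0490 CPM in brain and 0.414 ± 0.474 CPM in olfactory tissue (SD, n = 8 each; two-sided exact permutation test over libraries, p = 0.0256). op1 did not pass the low-count filter in any comparison. With that filter off it was called lower in brain (edgeR, adjusted p = 0.00329 over 15543 genes), on a total of 12 reads, in a fit that called 28.5% of genes lower in brain. Reads with more than a single alignment were kept out of the gene counts and made up at least 16.7% of each library, so a gene with near-identical copies can lose its reads in this count. Whether op1 is such a gene was not tested.

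op9 was low and uneven. In brain it was at 8.79 and 2.37 CPM at 6am, 2.22 and 0.588 CPM at 12pm, 40.4 and 2.75 CPM at 6pm, and 7.97 and 0.396 CPM at 12am. In olfactory tissue it was at 12.3 and 1.89 CPM at 6am, 4.64 and 16.7 CPM at 12pm, 4.45, 5.86 and 1.07 CPM at 6pm, and 3.02 CPM at 12am. The ranges of the tissues overlapped. Reads numbered 3 to 403 per brain library and 4 to 34 per olfactory library. The exact Poisson 95% intervals were 36.6 to 44.6 CPM for the highest brain library and 0.0817 to 1.16 CPM for the lowest, so counting error alone did not span that range. The values of 12.3 and 16.7 CPM lay shortly before text that had been overwritten in their files, where a digit can be altered without trace.

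The highest op9 value, 40.4 CPM in brain 6pm replicate 1, lay far above the next highest brain library at 8.79 CPM. Within each clock time, the higher brain value was that of replicate 1, in 4 of 4 clock times. The mean was 8.19 ± 13.4 CPM in brain and 6.23 ± 5.44 CPM in olfactory tissue (SD, n = 8 each), higher in brain, while the fitted log2 change, brain over olfactory tissue, was -0.52 (SE 0.77, adjusted p = 0.566, edgeR). In this fit, which has no term for the replicate number, the difference did not pass. Without brain 6pm replicate 1 the log2 change was -1.28 (adjusted p = 0.135).

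op10, known from the same inner photoreceptors as op8, was counted in few reads. In brain it was at 1.81 and 1.38 CPM at 6am, 1.52 and 2.65 CPM at 12pm, 3.41 and 1.78 CPM at 6pm, and 0.704 and 0.792 CPM at 12am. In olfactory tissue it was at 3.25 CPM and listed at 0 at 6am, 2.32 and 6.14 CPM at 12pm, 1.78, 3.52 and 1.22 CPM at 6pm, and 1.62 CPM at 12am. These are 6 to 34 reads per brain library and 0 to 9 per olfactory library, and the ranges overlapped. The means were 1.76 ± 0.907 CPM in brain and 2.48 ± 1.85 CPM in olfactory tissue (SD, n = 8 each), a fitted log2 change, brain over olfactory tissue, of -0.92 (SE 0.50, adjusted p = 0.111, edgeR). This rested on olfactory tissue at 6am, where the library without a read lay near overwritten text. The log2 change was 0.81 (adjusted p = 0.485) without olfactory 6am replicate 1, and -1.14 (adjusted p = 0.0192) without olfactory 6am replicate 3.

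The next comparison asked whether the opsins followed the clock. None of the 3 tested opsins passed the test for a difference between clock times in brain (edgeR quasi-likelihood F-test, adjusted p = 1.00 for op8, op9 and op10), where 0.0104% of 9578 genes were called. The fitted difference between the highest and the lowest clock time was 0.66 on the log2 scale for op8 (6pm over 6am), 3.99 for op9 (6pm over 12pm) and 1.82 for op10 (6pm over 12am). Without brain 6pm replicate 1 these were 0.70 for op8, 1.04 for op9 and 1.28 for op10. For op9 the highest brain clock time thus rested on that library.

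The size of these differences was set against the spread between the 2 brain libraries of a clock time. For op8 the libraries differed 1.72-fold at 6am, 6.39-fold at 12pm, 1.02-fold at 6pm and 1.95-fold at 12am, and both the highest and the lowest brain library were taken at 12pm. For op9 they differed 3.72-fold at 6am, 3.77-fold at 12pm, 14.7-fold at 6pm and 20.1-fold at 12am. For op10 they differed 1.31-fold, 1.74-fold, 1.92-fold and 1.13-fold in the same order. Averaged over the 4 clock times, the difference on the log2(CPM + 1) scale was 1.11 for op8, 2.18 for op9 and 0.38 for op10, beside a median of 0.26 over the 9578 genes tested. It exceeded that of 95.2% of the genes for op8, 99.4% for op9 and 68.0% for op10. The added 1 shrinks differences of a gene as low as op10. Its 0.38 and 68.0% are therefore not on the scale of the fitted differences.

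Single contrasts in brain gave the same picture, as the plot of fitted changes shows. At 12am against 12pm, op10 was at 0.704 and 0.792 CPM at 12am and 1.52 and 2.65 CPM at 12pm, with no overlap. Its log2 change of -1.48 (SE 0.54) had an unadjusted p of 0.0300, rank 66 of 9578 genes, and did not pass (adjusted p = 1, edgeR), where 0.0104% of genes were called. For op8 that contrast was -0.19 (SE 0.81) and for op9 1.60 (SE 1.69). Against 6am, the log2 changes at 12pm were 0.57 (SE 0.81) for op8, -2.05 (SE 1.69) for op9 and 0.39 (SE 0.51) for op10. At 6pm they were 0.66 (SE 0.81), 1.94 (SE 1.53) and 0.73 (SE 0.51) in the same order, and at 12am 0.38 (SE 0.81), -0.44 (SE 1.54) and -1.09 (SE 0.56). Every one of these had an adjusted p of at least 0.9986 (edgeR).

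**Figure D3:**
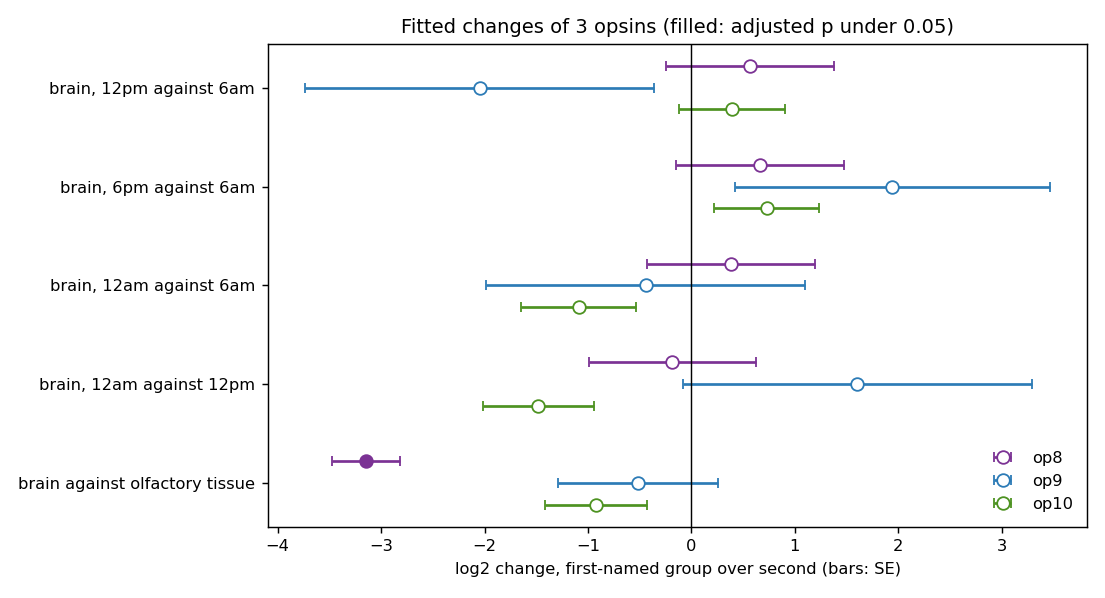
Fitted log2 changes of op8, op9 and op10 with their SE (horizontal bars) for 4 contrasts between clock times in brain and for brain over olfactory tissue. A filled symbol marks an adjusted p under 0.05, which only op8 between the tissues reached (-3.15, SE 0.33).

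Replicate numbers gave similar orders of clock times for op9 and op10 in brain. Among the 4 replicate 1 libraries op9 was highest at 6pm, then 6am, 12am and 12pm, and among the 3 replicate 3 libraries at 6pm, then 6am and 12am. op10 was highest at 6pm, then 6am, 12pm and 12am among replicate 1 libraries, and at 6pm, then 6am and 12am among replicate 3 libraries. op8 was highest at 12pm, then 12am, 6pm and 6am among replicate 1 libraries, and at 6pm, then 12am and 6am among replicate 3 libraries. Both numbers thus had 6am lowest, and over their shared clock times only 12am and 6pm changed places. No 12pm brain library among those used carried the number 3. These orders are descriptions of single libraries and had no test. Some of their steps lay within counting error. Among replicate 1 libraries op9 had 68 reads at both 6am and 12am, and among replicate 3 libraries op10 had 11, 7 and 6 reads.

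In olfactory tissue the 3 opsins did not pass between clock times either (edgeR F-test, adjusted p = 0.887 for op8, 0.887 for op9 and 0.954 for op10), where 0.0503% of 9948 genes were called. In that fit, which has no term for the replicate number, each had its highest clock time at 12pm and its lowest at 12am, which held 1 library. The differences were 1.11 on the log2 scale for op8, 1.93 for op9 and 1.48 for op10, and that of op9 was 0.77 without 12pm replicate 2. The 12am library had the lowest op8 of the 8 olfactory libraries, 994 CPM, and the next was at 1267 CPM. The daily pattern was not shown to differ between the tissues for op8 (adjusted p = 0.974), op9 (adjusted p = 0.972) or op10 (adjusted p = 0.973, edgeR interaction test), where 0 of 11442 genes were called, 367 had an unadjusted p under 0.05, and DESeq2 called 19.

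Whether the opsins moved together between libraries was examined over the 8 brain libraries on the log2(CPM + 1) scale, for 3 pairs. op1 was left out, with 1 read in all. Pearson's r was 0.49 for op8 and op9 (exact permutation p = 0.224, adjusted over the 3 pairs 0.456; Spearman's rho 0.36, exact permutation p = 0.389, adjusted 0.582). It was -0.18 for op8 and op10 (exact permutation p = 0.67, adjusted 0.67; rho -0.24, exact permutation p = 0.582, adjusted 0.582). It was 0.41 for op9 and op10 (exact permutation p = 0.304, adjusted 0.456; rho 0.36, exact permutation p = 0.389, adjusted 0.582). Without the 2 libraries farthest from the median of the first-named opsin, r was 0.21, 0.20 and -0.40 in the same order. The last relation thus changed sign without brain 6pm replicate 1 and 6am replicate 1, and the second without brain 12pm replicate 2 and 6am replicate 3.

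For op8, op9 and op10, the genes whose levels were most like theirs over the 8 brain libraries were looked up among 6801 genes with a mean of at least 10 CPM there (6800 for op8, itself left out). The highest of so many correlations over 8 libraries are high by selection, so the values are descriptions, and they share the libraries and their depth. The genes most like op8 were AAEL006259 (r = 0.98), AAEL003116 (r = 0.97) and AAEL013535 (r = 0.96). AAEL006259 was at 22200 ± 10007 CPM in brain and 148274 ± 33261 CPM in olfactory tissue (SD, n = 8 each), a log2 change of -3.33 (SE 0.34, adjusted p = 1.34e-06, edgeR), close to that of op8. AAEL003116 and AAEL013535 were also lower in brain, with log2 changes of -2.64 (SE 0.35, adjusted p = 1.55e-05) and -2.62 (SE 0.38, adjusted p = 4.29e-05, edgeR). In that test 38.1% of all genes were called lower in brain.

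The op8 count was then set against the AAEL006259 count of the same library, a comparison chosen after the values were seen. AAEL006259 was picked for its likeness to op8 in brain, so a narrow range of the share there follows from that choice. It was 0.878 to 1.24% of that count in brain, with a mean of 1.06% ± 0.130, and 0.647 to 2.13% in olfactory tissue, with a mean of 1.15% ± 0.487 (SD, n = 8 each). The highest olfactory shares, 2.13 and 1.57%, were those of 6pm replicates 1 and 3. An exact permutation test of the share between the tissues gave p = 0.664. That test decides nothing, because AAEL006259 was picked from these same data.

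**Figure D4:**
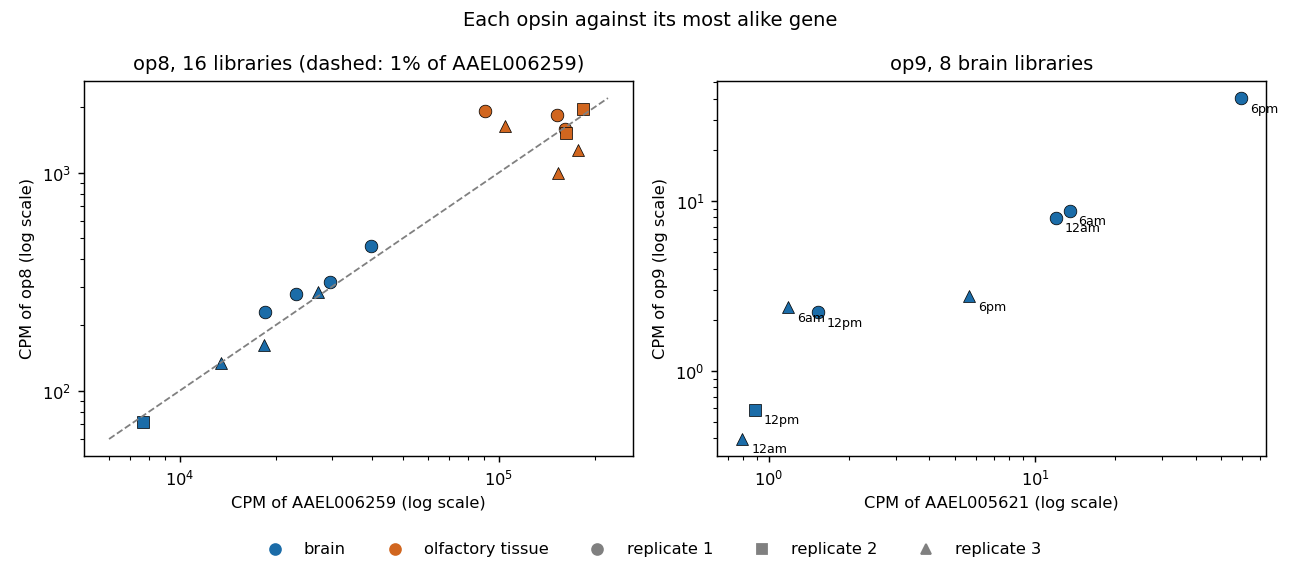
Left, CPM of op8 against CPM of AAEL006259 in 16 libraries, both on log scales, where the dashed line marks 1% of AAEL006259. Right, CPM of op9 against CPM of AAEL005621 in the 8 brain libraries, both on log scales and labelled by clock time. The brain libraries of op8 lie at 0.878 to 1.24% of AAEL006259, and both genes of the right panel are highest in 6pm replicate 1.

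The gene most like op9 was AAEL005621 (r = 0.97), followed by AAEL010146 (r = 0.94) and AAEL010951 (r = 0.93). AAEL005621 was at 59.3 CPM in the brain library in which op9 was highest and at 0.792 CPM in the library in which op9 was lowest. Its mean was 11.8 ± 19.8 CPM in brain and 7.54 ± 4.598 CPM in olfactory tissue (SD, n = 8 each), a difference that did not pass (log2 change of -0.36, SE 0.73, adjusted p = 0.679, edgeR). Its r with op8 was 0.47 and with op10 0.40. AAEL010146 ranged over 326 to 383 CPM in brain and AAEL010951 over 7.84 to 35.7 CPM.

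For op10, which rested on 6 to 34 reads per brain library, the likeness was lower, at r = 0.88 for AAEL000930, 0.86 for AAEL014003 and 0.86 for AAEL005643. Their r with op8 was negative, at -0.26, -0.51 and -0.45 in the same order. Each had its highest brain values in 12pm replicate 2 and 6pm replicate 1, at 35.4 and 31.8 CPM for AAEL005643. Brain 12pm replicate 2 was also the library with the lowest op8, 71.8 CPM, and r without it was not computed. None of these 3 genes passed between the tissues (edgeR, adjusted p = 0.198, 0.645 and 0.461), in a test that called 71.8% of 11442 genes.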

How the data were processed

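Per the labels' protocols, total RNA was extracted with Trizol and NEBNext Ultra II reagents made the libraries, and the submitters' processing notes name bcl2fastq, FastQC, STAR and HTSeq. For genome build, annotation release and strand setting, nothing is stated in these sources. Each deposited file gives, for 1 library, the unnormalised count of reads per gene. Of 24 *Aedes* samples listed, 16 were used here. Text was overwritten in 44 stretches, and 405 genes with a damaged line were left out of the tests, leaving 19399. Lines naming no gene took 29.9 to 58.2% of reads.

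CPM used the summed gene counts. Tests used edgeR 4.0.16 in R 4.3.3 (TMM, filterByExpr, robust quasi-likelihood, adjusted p under 0.05), and DESeq2 1.42.0 was an alternative. SE was taken from the log2 change and its F statistic. The fits were also run on simulated counts, with the same dispersion for every gene and changes placed only in well-counted genes. That setting differs from op9 and op10, so it does not show what change in them would be found. Exact permutation tests used scipy 1.17.1. Named genes were the 4 opsins and, for each opsin past the filter, the 3 with the highest r over brain libraries. Planned lists of other opsins and phototransduction genes needed gene descriptions and were not used here. The members and lists were chosen with earlier results of these data known. No 2 libraries held identical counts.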

Additional observations from a re-analysis of the deposited data

Results flagged for a closer look

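In a group of 8 brain libraries, op9 in 6pm replicate 1 lay far from the others, at 40.4 CPM with the next library at 8.79 CPM. The gap was 0.790 of the whole range, against a critical value of 0.526. op1 in brain 12pm replicate 1 stood apart at 0.139 CPM, which is 1 read where the other 7 brain libraries had 0, so that its gap is the whole range by construction. For normally distributed values chance gives a gap past the critical value in about 1 of 20 groups, and 8 groups were examined. That rate does not hold for op1 counts.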

How the results depend on the processing

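op8 stayed lower in brain, past the threshold, under all 22 alternatives that gave a value (log2 change of -3.62 to -2.60, adjusted p up to 2.20e-05), although leaving out the scaling factor moved the median over all genes by 0.54. For op9 that difference passed with the replicate number as a block (-1.11, adjusted p = 0.0293) and was 0.017 with no scaling factor. For op10 leaving out 1 library gave -1.14 to 0.81.

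Same-numbered libraries deviated together in 8 of 9 brain pairs (correlation over 0.1, median 0.24) and in 3 of 5 olfactory pairs. For other numbers in brain the median was -0.24. Deviations were taken from the mean of a clock time, so those of the libraries of a brain clock time mirror each other. The value of -0.24 therefore follows from 0.24 and is no separate evidence. Brain pairs with number 3 repeated values of other same-numbered pairs (0.3834, 0.2432 and 0.1273), so the 9 pairs are not independent. Not every pair passed and not every library correlated best with its own number, so the numbers were not taken to pair the libraries. The same-numbered brain correlations, which ran from -0.14 to 0.49, do not settle whether the numbers pair them. With the replicate block, op10 at 12pm against 6am in brain turned to -0.24, and the olfactory clock-time differences turned to -1.01 for op9 and -0.68 for op10. Apart from op9 between the tissues, the block changed no call of an opsin. In brain contrasts the SE with the block was 0.268 to 0.335 for op8, against 0.808 to 0.812 without it. For op9 it was 0.572 to 0.782, against 1.53 to 1.69, and for op10 0.477 to 0.665, against 0.507 to 0.556.

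With 1 library left out, brain contrasts turned sign without being called. At 12pm against 6am the values ran from -1.35 to 1.37 for op8 and from -0.048 to 0.70 for op10, at 6pm from -0.98 to 3.20 for op9, at 12am from -0.15 to 0.83 for op8 and from -3.77 to 0.82 for op9, and at 12am against 12pm from -0.98 to 1.74 for op8 and from -1.72 to 2.81 for op9. The relations ran from -0.41 to 0.20 for op8 with op10 and from -0.18 to 0.70 for op9 with op10. The cause was not tested.

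Genes called between brain clock times numbered 1, against 17 with DESeq2, 0 with the block (343 at an unadjusted p under 0.05) or with 24-hour cosine and sine terms (290), and 0 to 1 with a library left out. At 12pm against 6am the 1 call became 4 with DESeq2, 0 with the block (191) and 0 to 1 with a library left out, and at 12am against 12pm 6 with DESeq2 and 0 to 1. DESeq2 called 20 at 6pm and 3 at 12am against 6am, where edgeR called 0 (364 and 83 unadjusted). With the block edgeR also called 0 in both (832 and 183 unadjusted). In olfactory tissue the 5 calls became 43 with DESeq2, 31 with the block, 3 with no scaling factor, 344 with no low-count filter, 3 with a mean of at least 50 counts, 11 with cosine and sine terms and 0 to 32 with a library left out. For tissue by clock time DESeq2 called 19. The 8210 genes called between the tissues became 5583 to 8526. DESeq2 gave no adjusted p for some opsins in the test of tissue by clock time. Depth limits op1, op9 and op10.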
